A study of Mus musculus with 6 samples.

Results

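The Slc25a genes encode the mitochondrial carrier family, and all 41 rows of the deposited table whose symbol is Slc25a followed by digits were taken as its members, out of 13809 genes in all. The genes came from hearts of mouse embryos at E18.5, described as ventricular tissue in the study's text and as heart in the sample labels. Libraries of ribosomal RNA-depleted total RNA were sequenced from 3 wild-type (WT) and 3 *Pkm1*-knockout (KO) biological replicates. Whether hearts of several embryos were pooled in a replicate is not stated. KO embryos carry, in every tissue, a homozygous CRISPR/Cas9 deletion in the exon used by *Pkm1*, the pyruvate kinase isoform of adult muscle and heart, that introduces a premature stop codon. Since the columns carry only the genotype, the libraries are called WT a, b and c and KO a, b and c in column order, and nothing in the labels says more about the embryos than their genotype and stage.

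Carriers of this family sit in the inner mitochondrial membrane, apart from a few members found in the outer membrane or in peroxisomes, and most of them exchange a metabolite, nucleotide or cofactor of the cytosol for one of the matrix. In the heart they let phosphate and ADP in and ATP out, move acylcarnitines to the site of fatty acid oxidation, and carry the aspartate, glutamate, malate and oxoglutarate of the shuttle that brings glycolytic reducing equivalents to the respiratory chain. They are encoded in the nucleus, made in the cytosol and imported by dedicated translocases.

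Totals per library ran from 15597756 to 19875546 for WT and from 15567624 to 18577404 for KO, and 3 counts, taken as the limit of detection, came to 0.153 to 0.197 CPM (counts per library size, scaled by edgeR's TMM factors), which covers counting error only. The targeted gene *Pkm* was at 1318 ± 41.1 CPM in WT hearts and 542 ± 10.1 CPM in KO hearts (SD, 3 per group) and fell by 1.28 on the log2 scale. WT c stood apart from the other WT libraries, with a mean chi-square per gene of 3.24 and 3.76 against them, where 1 is sampling noise and WT a and WT b differed by 1.55. The X-inactivation transcript *Xist* held 5.26 CPM in WT hearts and 2285 CPM in KO hearts, and 4 Y-linked genes had 0 counts in every KO library, so sex and genotype cannot be told apart. Of 8 cardiomyocyte markers 7 fell and 1 rose in KO hearts, with summed levels of 129028 to 133089 CPM in WT and 121564 to 123028 CPM in KO, and 3 of 6 atrial markers rose, with sums of 595 to 601 and 1006 to 1030 CPM. Epicardial markers rose in 3 of 4 cases (sums of 66.5 to 70.2 CPM in WT and 82.4 to 87.1 CPM in KO), 3 of 6 fibroblast markers fell (3254 to 3295 and 3016 to 3074 CPM), and of 7 endothelial markers 3 fell and 1 rose (1146 to 1149 and 1109 to 1128 CPM). Of 4 smooth muscle markers 1 fell and 1 rose, and no call was made by edgeR's test among 5 leukocyte markers (sums of 26.5 to 30.2 and 29.0 to 34.5 CPM). For comparison, at an adjusted p under 0.05 edgeR's test called a fall for 15.7% and a rise for 14.6% of 13804 genes. CPM summed over these genes was itself lower in KO, at 983091 to 984341 beside 1011230 to 1024780 in WT. Whether a marker sum differed by more than this was not tested. In whole tissue, fewer cells of a type and less RNA per cell cannot be told apart.

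All 41 members passed the filter on low counts, which kept 13804 of the 13809 genes in the deposited table. In KO hearts 5 of them fell and 4 rose at an adjusted p under 0.05 (edgeR's quasi-likelihood test, Benjamini-Hochberg over all 13804 genes tested), and 32 did not pass. The background in the same test was 15.7% of all genes lower and 14.6% higher, 30.3% in either direction, against 22.0% of the members. The members that fell were *Slc25a4*, *Slc25a16*, *Slc25a20*, *Slc25a23* and *Slc25a25*, and *Slc25a18*, *Slc25a27* and *Slc25a37* were among those that rose. The median log2 fold change of the 41 members was -0.00190, beside 0.00172 over all genes tested. For 10 members the 3 WT and 3 KO libraries did not overlap, these 9 and *Slc25a14*, while 42.4% of all genes tested had groups that did not overlap. Every KO library was lower for 5 of the 10 and higher for 5, beside 21.4% and 21.0% of all genes tested. Of the 9 members called, 5 changed by at least 0.3 on the log2 scale, and 14.4% of all genes met both criteria.

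**Figure D1:**
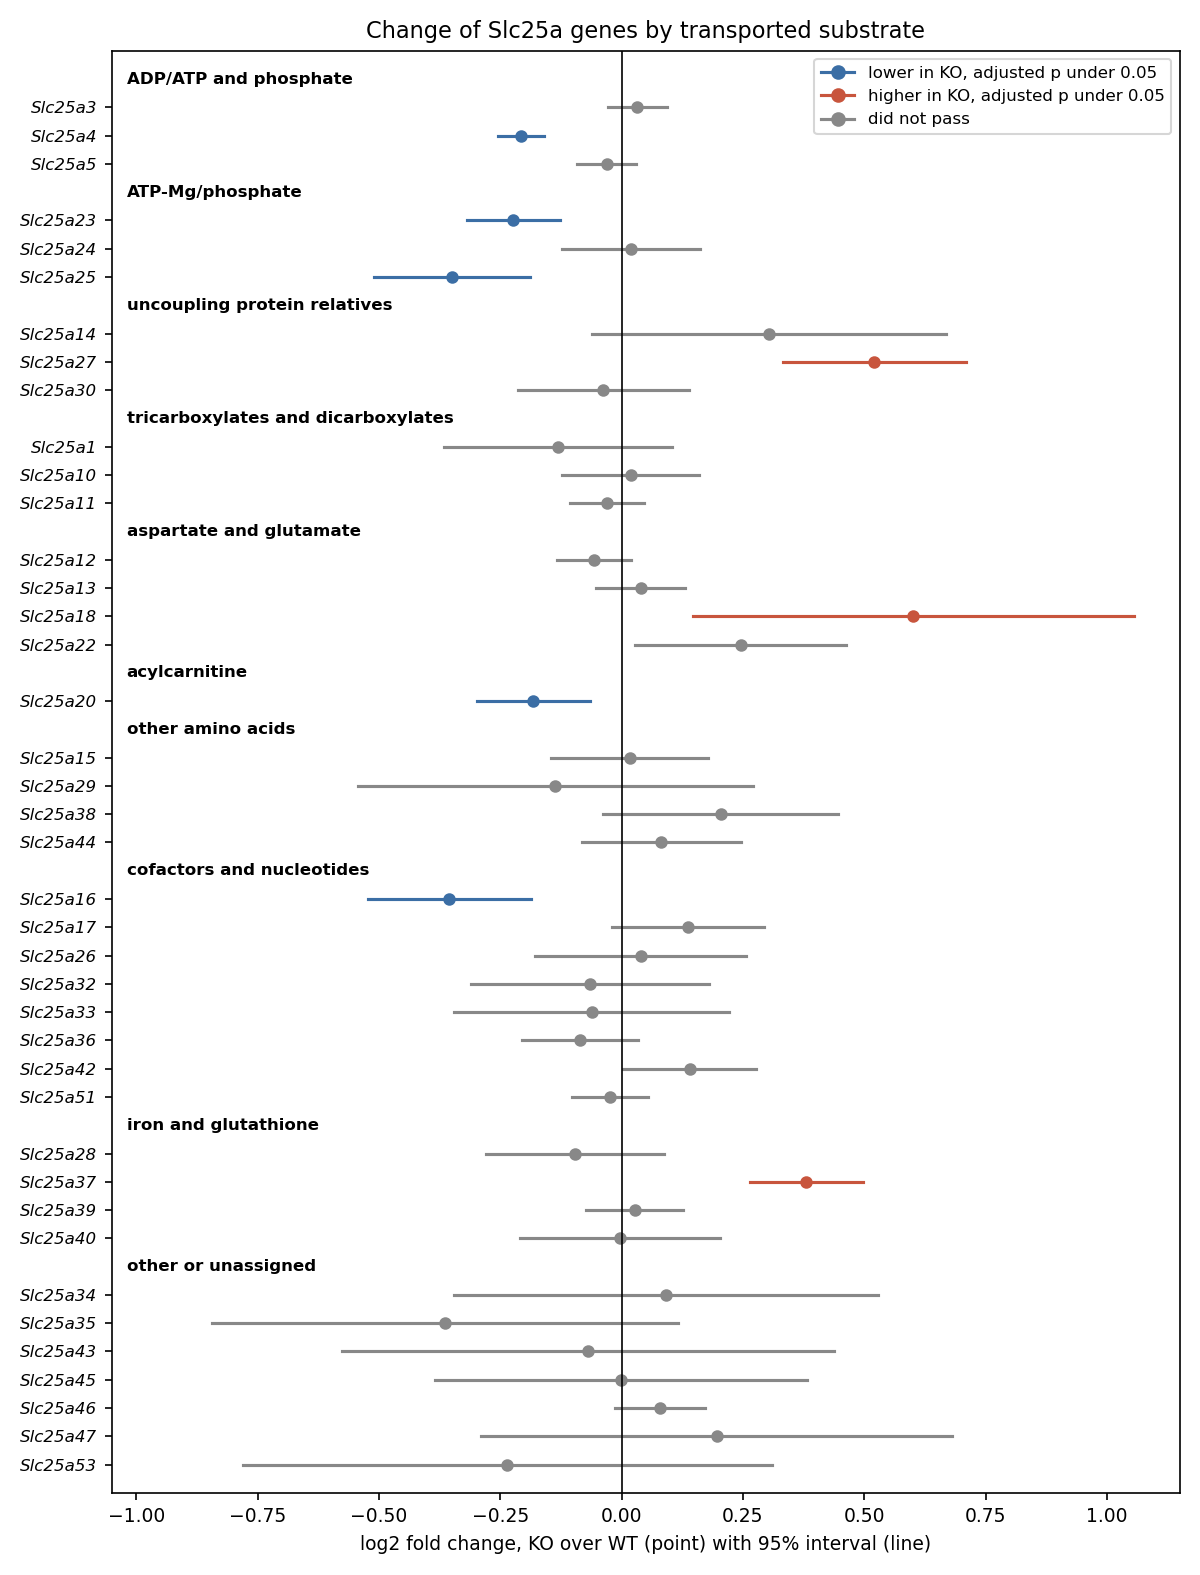
Log2 fold change (KO over WT, x axis) of 40 Slc25a genes, grouped by transported substrate, with 95% confidence intervals from edgeR's fit (3 WT and 3 KO libraries). The 5 members that fell and 3 that rose at an adjusted p under 0.05 are coloured, and the remaining 32 lie between -0.36 and 0.30.

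The study examined motifs in the promoters of genes lower in KO hearts and followed NFYa, a subunit of the factor that binds CCAAT boxes, so the promoters of the members that fell are shown at this motif. RefSeq promoters of GRCm38.p6 (250 bases before to 50 after a start) were found for 32 of the 41 members, 41 promoters in all, and the motifs were searched in the bases before the start, on both strands. CCAAT or its reverse complement ATTGG was in 20 of the 41 member promoters (48.8%) and in 34.7% of 13148 promoters of genes tested. It was in 6 of 8 promoters of members that fell, which belong to 5 genes, in 14 of 32 promoters of members that did not pass, and in 0 of 1 promoter of a member that rose, *Slc25a18*. The promoters with a match were those of *Slc25a4*, *Slc25a23* and *Slc25a25*, and those of *Slc25a16* and *Slc25a20* had none in this window. Stretches of 60 bases around the match nearest to the start are given 5′ to 3′ on the strand of the gene, which is the minus strand in each, with CCAAT or ATTGG in capitals. The *Slc25a4* stretch lies at chr8:46211086-46211145, with its match 56 bases before the start, and those of 3 alternative RefSeq starts of *Slc25a25* lie at chr2:32451492-32451551, chr2:32431152-32431211 and chr2:32424112-32424171, with matches 54, 32 and 78 bases before the start. The starts are RefSeq's, and the stretch of *Slc25a4* and those of the last 2 starts of *Slc25a25* lie inside the spans that GENCODE gives these genes. For 26 of the 32 members with a promoter, bases after a RefSeq start were found in a GENCODE transcript of the gene.
Slc25a4: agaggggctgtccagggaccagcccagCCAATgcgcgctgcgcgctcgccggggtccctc
Slc25a25, start 1: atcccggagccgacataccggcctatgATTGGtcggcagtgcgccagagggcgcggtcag
Slc25a25, start 2: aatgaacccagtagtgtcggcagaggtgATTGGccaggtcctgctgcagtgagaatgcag
Slc25a25, start 3: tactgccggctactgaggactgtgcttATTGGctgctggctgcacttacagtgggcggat

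In *Slc25a4* and at all 3 starts of *Slc25a25* the nearest match lay within 78 bases of the start. Some members that did not pass had matches as near, such as *Slc25a13* (22 bases), a start of *Slc25a22* (32), *Slc25a29* (38) and *Slc25a28* (43). Others that did not pass had a farther match, such as *Slc25a17* (161), or none, such as *Slc25a3*. The match of *Slc25a23* lay 211 and 232 bases before its starts, whose promoters overlap and hold the same CCAAT. The GC box, GGGCGG or CCGCCC, was in 30 of 41 member promoters (73.2%) and in 56.2% of promoters of genes tested. It was in 5 of 8 promoters of members that fell (62.5%) and in 25 of 32 of members that did not pass (78.1%). The 1 promoter of a member that rose had 0 matches. A match is a string of letters in the promoter and no record of binding.

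*Slc25a4* encodes the ADP/ATP carrier of heart and skeletal muscle and was the most abundant member in every library. The gene spans chromosome 8 from 46206797 to 46211284 on the minus strand of GRCm38. Its level was 2036, 2081 and 2137 CPM in WT and 1825, 1812 and 1780 CPM in KO hearts. Every KO library was below every WT library. It fell by 0.21 on the log2 scale (SE 0.0227, adjusted p = 6.85e-08, edgeR's quasi-likelihood test, Benjamini-Hochberg), from 2085 ± 50.5 to 1806 ± 23.0 CPM (SD, 3 per group). The cardiomyocyte markers fell in the same libraries, with a median log2 fold change of -0.24, and their part in this result was not tested.

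*Slc25a5*, the ADP/ATP carrier of most tissues, was at 474, 480 and 457 CPM in WT and 455, 474 and 453 CPM in KO hearts, a log2 fold change of -0.03 (SE 0.0292, adjusted p = 0.454, edgeR's quasi-likelihood test). *Slc25a3*, the phosphate carrier, was at 812, 811 and 755 CPM in WT and 803, 840 and 790 CPM in KO hearts, a log2 fold change of 0.03 (SE 0.0297, adjusted p = 0.439). For both genes the groups overlapped, and the 95% confidence intervals of the log2 fold change were -0.09 to 0.03 for *Slc25a5* and -0.03 to 0.09 for *Slc25a3*. *Slc25a5* is X-linked and shares 33.8% of its 50-base words with transcripts of 9 other genes, among them the pseudogene *Slc25a5-ps*, so reads may have been split in the authors' counting. Per kilobase of exon *Slc25a4* made up 73.4%, 73.6% and 75.1% of the *Slc25a4* and *Slc25a5* total in WT and 72.1%, 71.1% and 71.7% in KO hearts. The KO shares all lay below the WT shares (exact two-sided permutation p = 0.1, the smallest that 3 against 3 allows).

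Summed over all 41 members, the family was at 4671, 4755 and 4709 CPM in WT and 4426, 4490 and 4396 CPM in KO hearts. All KO sums were below all WT sums, a difference of -5.82% of the WT mean (exact two-sided permutation p = 0.1, the smallest possible). On this scale the sums over all genes tested were lower in KO as well, 983091 to 984341 CPM beside 1011230 to 1024780 CPM in WT. As a share of raw counts the family held 0.460% to 0.469% in WT and 0.447% to 0.457% in KO. *Slc25a4* held 43.6% to 45.4% of the family's counts in WT and 40.4% to 41.2% in KO. Without *Slc25a4* the sums were 2627 ± 51.7 CPM in WT hearts and 2632 ± 40.4 CPM in KO hearts (SD, 3 per group), and the groups overlapped (exact two-sided permutation p = 0.9).

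Levels were compared between members as CPM per kilobase of annotated exon, and on this scale the family spanned a 2035-fold range. *Slc25a4* was at 1083 in WT and 938 in KO hearts, *Slc25a3* at 407 and 417, and *Slc25a5* at 379 and 371. *Slc25a11*, the oxoglutarate/malate carrier, followed at 105 and 103, and *Slc25a39*, an importer of glutathione, at 59.6 and 60.7. These 5 genes held 86.3% of the family's level per length in WT and 85.4% in KO hearts. In CPM, *Slc25a11* was at 175, 189 and 175 in WT and 173, 174 and 180 in KO hearts (log2 fold change -0.03, SE 0.0370, adjusted p = 0.567 by edgeR's quasi-likelihood test). *Slc25a39* was at 95.3, 95.8 and 110 CPM in WT and 98.7, 105 and 103 CPM in KO hearts (log2 fold change 0.03, SE 0.0485, adjusted p = 0.712). Both pairs of groups overlapped.

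**Figure D2:**
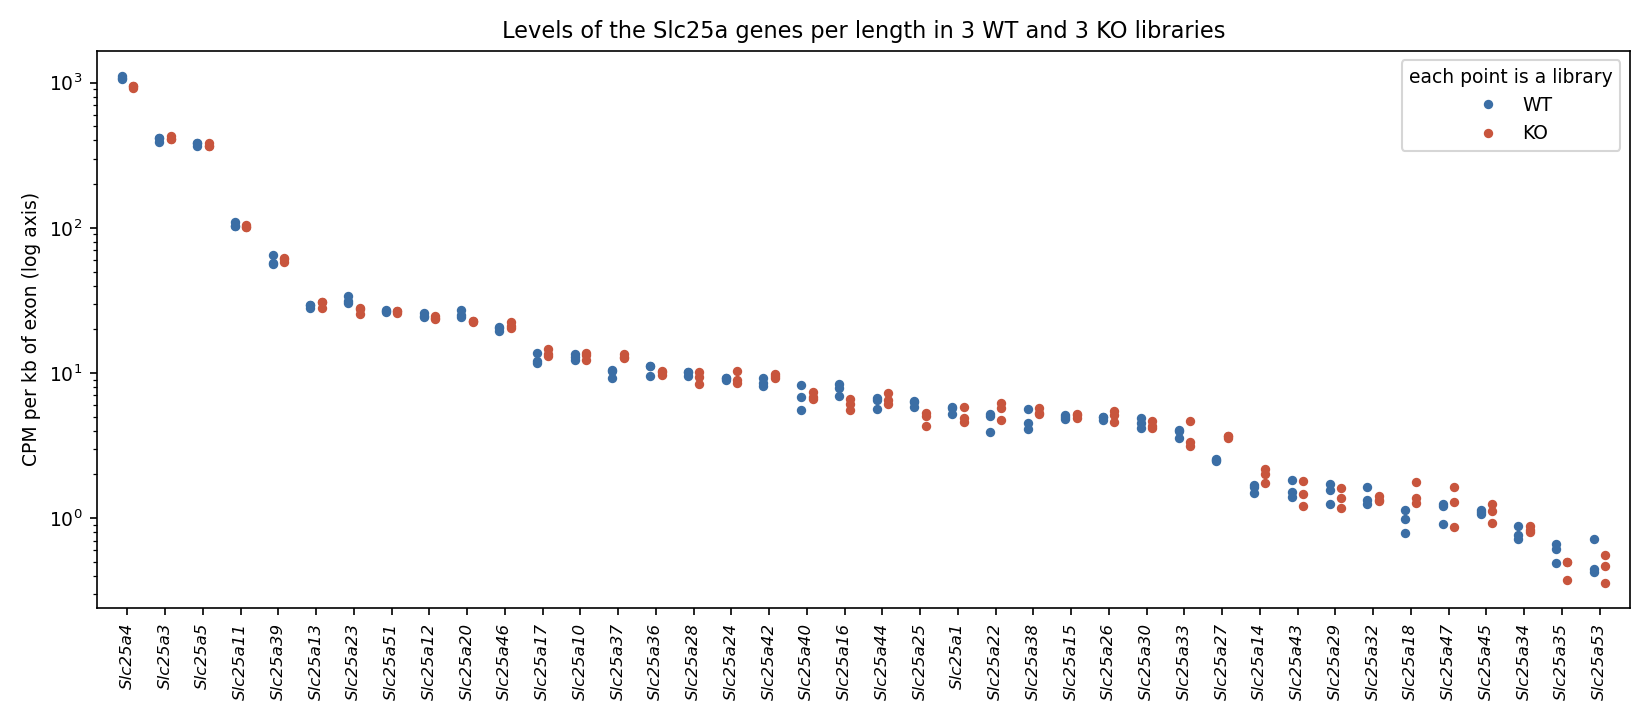
Level of 40 Slc25a genes in CPM per kilobase of exon (y axis, log scale) in the 3 WT and 3 KO libraries, 1 point per library, ordered by mean level. *Slc25a4* (1083 in WT), *Slc25a3* (407) and *Slc25a5* (379) stand above the other members.

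The ATP-Mg/phosphate carriers exchange magnesium-bound ATP for phosphate under the control of calcium and so set the adenine nucleotide pool of the matrix. Among 3 measured members, 2 fell and 0 rose, beside 15.7% of all genes tested lower and 14.6% higher. *Slc25a25* was at 24.0, 26.5 and 26.2 CPM in WT and 17.9, 20.8 and 21.7 CPM in KO hearts, with every KO library below every WT library. It fell by 0.35 on the log2 scale (SE 0.0780, adjusted p = 0.00117, edgeR's quasi-likelihood test). *Slc25a25* spans chromosome 2 from 32414487 to 32451445 on the minus strand, and 9.20% of its exon bases overlap exons of *Naif1* on the opposite strand, which was at a log2 fold change of 0.09 (adjusted p = 0.685). A smaller part of *Slc25a23* (4.22%) overlaps exons of the opposite strand, and the strand setting of the authors' counting was not given in the sources used here.

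*Slc25a23*, the most abundant of the group per kilobase, was at 102, 105 and 113 CPM in WT and 94.4, 93.3 and 85.9 CPM in KO hearts. The groups did not overlap, and it fell by 0.22 on the log2 scale (SE 0.0465, adjusted p = 5.86e-04, edgeR's quasi-likelihood test). *Slc25a24*, the third paralog, was at 31.3 ± 0.633 CPM in WT hearts and 31.8 ± 3.32 CPM in KO hearts (SD, 3 per group), and the 95% confidence interval of its log2 fold change ran from -0.12 to 0.16.

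*Slc25a20*, the carrier of acylcarnitines, exchanges them for free carnitine across the inner membrane. Its level was 43.6, 48.3 and 44.9 CPM in WT and 40.5, 40.4 and 39.8 CPM in KO hearts, without overlap. It fell by 0.18 on the log2 scale (SE 0.0562, adjusted p = 0.0154, edgeR's quasi-likelihood test), a call that ended without WT b (adjusted p = 0.115) and without KO c (adjusted p = 0.0579). Of 4 carnitine enzymes tested, *Cpt2*, which rebuilds acyl-CoA in the matrix, fell (log2 fold change -0.22), *Cpt1a*, which makes acylcarnitines at the outer membrane, rose (0.15), and *Cpt1b* and *Crat* did not pass. The background over all genes tested was 15.7% lower and 14.6% higher.

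*Slc25a16*, a carrier linked to the transport of coenzyme A, spans chromosome 10 from 62920633 to 62946498 on the plus strand. Its level was 24.9, 26.2 and 21.9 CPM in WT and 17.4, 19.1 and 20.9 CPM in KO hearts, and the highest KO library lay below the lowest WT library, WT c. It fell by 0.35 on the log2 scale (SE 0.0817, adjusted p = 0.00156, edgeR's quasi-likelihood test). *Slc25a42*, the other carrier known for coenzyme A, was at 27.6 ± 1.91 CPM in WT hearts and 30.5 ± 1.13 CPM in KO hearts (SD, 3 per group) and did not pass (log2 fold change 0.14, adjusted p = 0.115). Another 6 cofactor and nucleotide carriers in the table, *Slc25a17* of peroxisomes, *Slc25a26* for S-adenosylmethionine, *Slc25a32* for folate, *Slc25a33* and *Slc25a36* for pyrimidine nucleotides and *Slc25a51* for NAD, did not pass, with log2 fold changes of -0.09 to 0.14. Without WT c, *Slc25a36* passed as lower (log2 fold change -0.15, adjusted p = 0.0166).

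**Figure D3:**
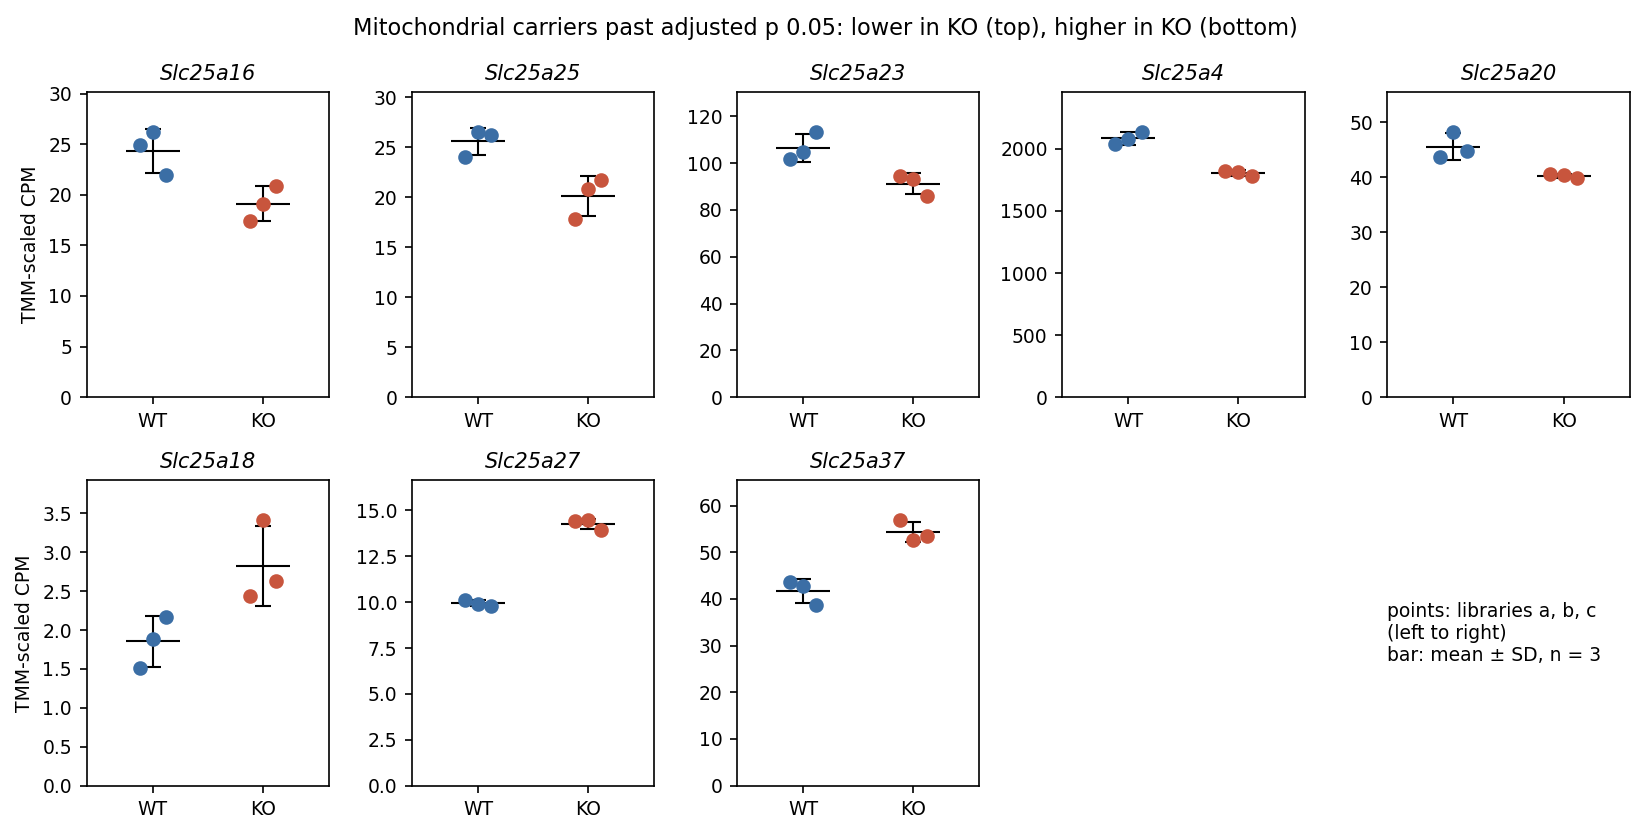
Level (CPM) of 8 Slc25a genes with an adjusted p under 0.05 in each of the 3 WT and 3 KO libraries, with bars for the mean ± SD and a separate y axis for each gene. In every panel the WT and KO libraries lie apart, the KO libraries lower for 5 genes, such as *Slc25a4* (2085 to 1806 CPM), and higher for 3, such as *Slc25a27* (9.94 to 14.3 CPM).

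Among the relatives of the uncoupling proteins, *Slc25a27*, also known as UCP4 and best known from brain, had the largest gap between the groups of any member that passed. Its level was 10.1, 9.90 and 9.79 CPM in WT and 14.4, 14.5 and 14.0 CPM in KO hearts, so that the lowest KO library was 37.7% above the highest WT library. It rose by 0.52 on the log2 scale (SE 0.0915, adjusted p = 8.71e-05, edgeR's quasi-likelihood test). *Slc25a27* spans chromosome 17 from 43641891 to 43667214 on the minus strand. *Slc25a14*, an X-linked relative, was at 2.91 ± 0.174 CPM in WT hearts and 3.60 ± 0.399 CPM in KO hearts (SD, 3 per group), with no overlap but an adjusted p of 0.202, and *Slc25a30* had a log2 fold change of -0.04. *Ucp2*, an uncoupling protein named outside the Slc25a symbols, was at 38.1, 34.5 and 35.7 CPM in WT and 26.1, 23.9 and 23.7 CPM in KO hearts and fell by 0.55 on the log2 scale (SE 0.0656, adjusted p = 2.71e-07, edgeR's quasi-likelihood test).

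Iron enters the matrix through the mitoferrins, *Slc25a37*, which is prominent in developing red cells, and *Slc25a28*, which is expressed broadly. *Slc25a37* spans chromosome 14 from 69241848 to 69285112 on the minus strand. It was at 43.6, 42.8 and 38.7 CPM in WT and 56.9, 52.7 and 53.5 CPM in KO hearts, with every KO library above every WT library. It rose by 0.38 on the log2 scale (SE 0.0566, adjusted p = 9.29e-06, edgeR's quasi-likelihood test). Transcripts of the opposite strand, *Gm31748* and *Gm27223*, overlap 11.3% of its exon bases. *Slc25a28* was at 14.7, 15.6 and 15.6 CPM in WT and 12.9, 15.7 and 14.4 CPM in KO hearts, groups that overlapped (log2 fold change -0.10, SE 0.0891, adjusted p = 0.445, edgeR's quasi-likelihood test). Per kilobase, *Slc25a28* made up 47.7%, 49.7% and 52.2% of the mitoferrin total in WT and 38.2%, 44.7% and 42.3% in KO hearts, without overlap (exact two-sided permutation p = 0.1, the smallest possible).

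Of 8 erythroid markers 3 were in the table. *Alas2*, the haem synthesis enzyme of red cells, rose (log2 fold change 0.30), and *Slc4a1*, the anion exchanger of their membrane, fell (-0.53). A call in either direction was made for 30.3% of all genes. The summed level of the 3 was 33.5 to 35.5 CPM in WT and 35.8 to 43.0 CPM in KO hearts, and its part in the rise of *Slc25a37* was not tested.

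Aspartate and glutamate are carried by *Slc25a12* and *Slc25a13*, the calcium-regulated exchangers of the malate-aspartate shuttle, and glutamate by *Slc25a18* and *Slc25a22*. *Slc25a12*, the form of heart and brain, was at 155, 158 and 165 CPM in WT and 152, 157 and 150 CPM in KO hearts (log2 fold change -0.06, SE 0.0370, adjusted p = 0.264, edgeR's quasi-likelihood test). *Slc25a13* was at 92.1, 92.0 and 87.8 CPM in WT and 95.6, 87.6 and 96.1 CPM in KO hearts (log2 fold change 0.04, SE 0.0446, adjusted p = 0.546). The groups overlapped for both genes. Per kilobase, *Slc25a12* was 45.2%, 45.8% and 48.0% of the pair in WT and 43.8%, 46.9% and 43.4% in KO hearts, which overlapped (exact two-sided permutation p = 0.3). The level of this share rests on annotated exon lengths of 6351 and 3122 bases, while in CPM *Slc25a12* was above *Slc25a13* in every library. Of 4 enzymes of the shuttle, the mitochondrial *Got2* and *Mdh2* fell (log2 fold changes -0.12 and -0.13), and the cytosolic *Got1* and *Mdh1* did not pass (-0.01 and -0.05). Among all genes, a fall was called for 15.7% and a change in either direction for 30.3%. A difference between the mitochondrial and cytosolic enzymes was not tested.

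**Figure D4:**
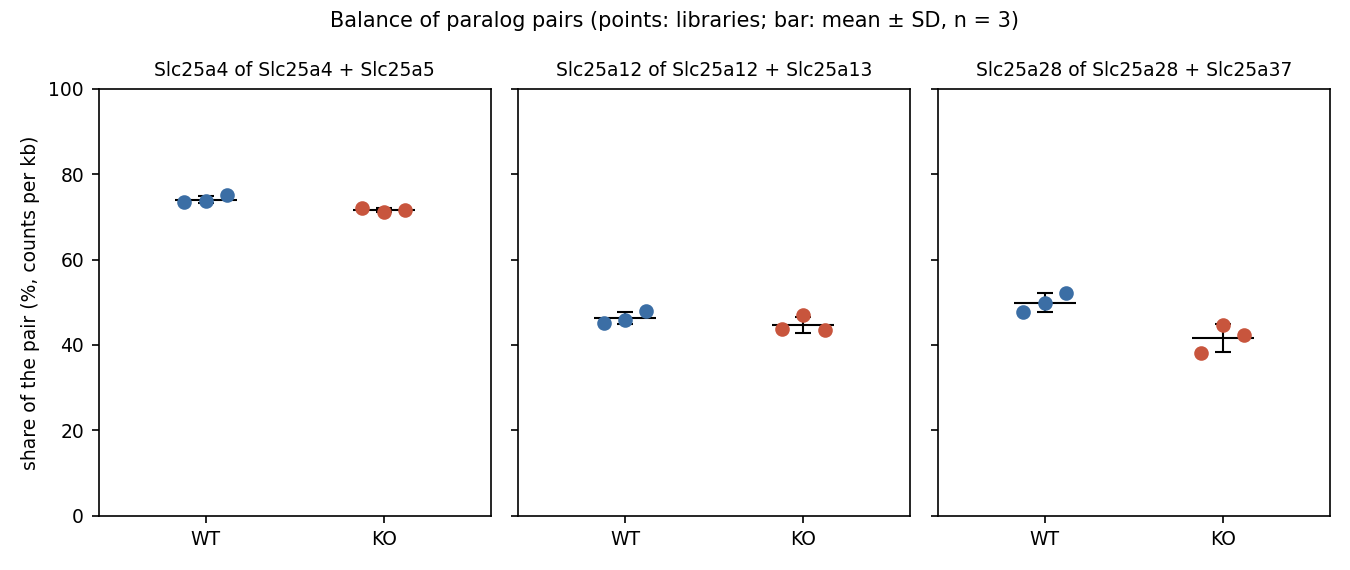
Share of the first gene in each of 3 carrier pairs (y axis, percent of the pair's counts per kilobase) in 3 WT and 3 KO libraries, with bars for the mean ± SD. The *Slc25a4* share (74.1% in WT, 71.6% in KO) and the *Slc25a28* share (49.9% and 41.7%) do not overlap between the groups, while the *Slc25a12* share (46.3% and 44.7%) does.

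*Slc25a18* had the highest log2 fold change of the family and ranked 36 of 41 in level per kilobase. It was at 1.51, 1.89 and 2.17 CPM in WT and 2.44, 3.41 and 2.63 CPM in KO hearts, from 26, 37, 33, 46, 54 and 49 counts. The groups did not overlap, and it rose by 0.60 on the log2 scale (SE 0.221, adjusted p = 0.0403, edgeR's quasi-likelihood test). The call did not hold by DESeq2 (adjusted p = 0.114), nor without WT a (0.149), WT b (0.0872), KO b (0.185) or KO c (0.0670). *Slc25a22* was at 13.6 ± 2.01 CPM in WT hearts and 16.0 ± 2.19 CPM in KO hearts (SD, 3 per group), with the smallest adjusted p of the members that did not pass (0.0812). Without WT c it passed as higher (log2 fold change 0.31, adjusted p = 0.0147).

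None of the 3 tricarboxylate and dicarboxylate carriers, the 4 other amino acid carriers or the 7 members with other or unassigned substrates passed. Over all genes tested, 30.3% passed in either direction. The citrate carrier *Slc25a1*, which exports citrate for fatty acid and sterol synthesis, was at 9.36 ± 0.559 CPM in WT hearts and 8.56 ± 1.10 CPM in KO hearts, and the dicarboxylate carrier *Slc25a10* at 26.1 ± 1.32 and 26.5 ± 1.36 CPM (SD, 3 per group). The ornithine carrier *Slc25a15*, the basic amino acid carrier *Slc25a29*, the glycine carrier *Slc25a38* and the branched-chain amino acid carrier *Slc25a44* had log2 fold changes of -0.14 to 0.20. *Slc25a46*, an outer membrane protein of mitochondrial shape, was at 88.3 ± 2.78 and 93.5 ± 4.65 CPM (SD, 3 per group), and *Slc25a34*, *Slc25a35*, *Slc25a43*, *Slc25a45*, *Slc25a47* and *Slc25a53* were under 5 CPM. *Slc25a40*, a relative of *Slc25a39*, was at 19.2 ± 3.87 and 19.3 ± 1.24 CPM (SD, 3 per group). *Slc25a2*, *Slc25a21*, *Slc25a31*, *Slc25a41*, *Slc25a48*, *Slc25a52* and *Slc25a54* have no row under these symbols in the deposited table and were not analysed here.

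Depth bore on these values. Of the 32 members that did not pass, the 9 at or above 50 CPM had SEs of 0.0292 to 0.0580, and their 95% confidence intervals lay within -0.21 to 0.17 on the log2 scale. The 8 under 5 CPM had SEs of 0.177 to 0.265, and their intervals, which reached from -0.84 to 0.68, all included 0. None of the 4 X-linked members, *Slc25a5*, *Slc25a14*, *Slc25a43* and *Slc25a53*, passed, beside 30.3% of all genes tested that passed.

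Of 30 other genes of mitochondrial carrier transport in the table, 6 fell and 5 rose, 36.7% in either direction beside 30.3% of all genes tested. *Mpc1*, a subunit of the pyruvate carrier through which the product of pyruvate kinase enters mitochondria, was at 24.2, 20.6 and 30.4 CPM in WT and 18.1, 16.5 and 18.5 CPM in KO hearts. No KO library reached the lowest WT library, WT b, and *Mpc1* fell by 0.48 on the log2 scale (SE 0.0994, adjusted p = 5.08e-04, edgeR's quasi-likelihood test). Its partner *Mpc2* was at 91.3 ± 1.94 CPM in WT hearts and 97.4 ± 1.98 CPM in KO hearts (SD, 3 per group; log2 fold change 0.09, adjusted p = 0.0875). The sideroflexin *Sfxn3* fell (log2 fold change -0.24). The porins *Vdac1*, *Vdac2* and *Vdac3*, the channels of the outer membrane, did not pass, with log2 fold changes of -0.06, -0.01 and 0.05. Of 9 genes that import carriers into the inner membrane 4 rose and 0 fell, beside 14.6% of all genes tested higher and 15.7% lower. The 4 were the receptor *Tomm70a* (log2 fold change 0.11), the channel *Tomm40* (0.18), the chaperone *Timm9* (0.30) and the translocase *Timm22* (0.25), and the other 5 had log2 fold changes of 0.01 to 0.16.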

How the data were processed

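The authors deposited raw read counts per gene symbol for 3 WT and 3 KO libraries, 1 column each. The submitters' processing notes name cutadapt 1.18, HISAT2, StringTie and mm10; the counting program, its strand setting and its annotation are not given in the sources used here. The table's log2 fold change, log2 CPM, p-value and false discovery rate columns hold the authors' own comparison and were not used.

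The counts went through edgeR 4.0.16 (R 4.3.3): filterByExpr with the genotype kept 13804 of 13809 genes, libraries were scaled by TMM, and KO was tested against WT by the quasi-likelihood test without covariates, with Benjamini-Hochberg adjustment over every gene kept and a threshold of 0.05. Family sums and paralog shares were tested by exact two-sided permutation over libraries in scipy 1.17.1. Shares were taken per kilobase of annotated exon, and with raw counts the difference between KO and WT kept its sign for each pair. Nothing says that the libraries of a group came from separate litters, so p-values measure the spread between these libraries. Gene positions, exon lengths, overlaps and shared 50-base words came from GENCODE M21 (GRCm38), and promoters from RefSeq (GRCm38.p6). Figures were drawn with matplotlib 3.10.9.

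Values in every library were given for members past the threshold with an absolute log2 fold change of at least 0.3, for the 5 most abundant per length and for both genes of each pair, and the same is printed for *Slc25a20* and *Slc25a23*, added after their values were seen. Of the genes counted, 1 member that rose and 1 marker are not reported here individually. Members, lists and tests were chosen with earlier results of these data known. Alternatives were RLE scaling, TMM without *Rn45s*, DESeq2 1.42.0, edgeR's exact test, voom of limma 3.58.1, no filter, at least 10 counts in every library, X- and Y-linked genes left out, libraries thinned to the smallest total, and each library left out. On simulated counts for 13804 genes with 200 changed, the test recovered 57.5% of changes of 1.2-fold, 81.5% of 1.5-fold and 95.0% of 2-fold. False calls were 11 of 126, 11 of 174 and 13 of 203 calls. Far more genes were called in the data (30.3%), so these rates need not hold there.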

Additional observations from a re-analysis of the deposited data

How the results depend on the processing

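The number of members that fell was 5 and the number that rose 3 (DESeq2) or 4 under the alternatives that kept all libraries, and 4 to 6 and 3 to 6 with each library left out, the highest without WT c, where all 9 members called before passed and *Slc25a22*, *Slc25a36* and *Slc25a38* passed as well. Calls ended for *Slc25a18* and *Slc25a20* as given above, and *Slc25a42* passed as higher without WT a (adjusted p = 0.0490, edgeR's quasi-likelihood test) and *Slc25a22* without KO b. The median log2 fold change lay between -0.0192 and 0.0170 throughout. Signs turned only among members that did not pass: *Slc25a40* was at 0.00346 by DESeq2, 0.00318 by edgeR's exact test, 0.00882 by voom and 0.0232 after thinning, *Slc25a45* at 0.000240 with at least 10 counts, and *Slc25a15* at -0.000604 after thinning. With each library left out, their log2 fold changes ran from -0.00891 to 0.0940 (*Slc25a39*), -0.104 to 0.0942 (*Slc25a45*), -0.0524 to 0.00569 (*Slc25a11*), -0.138 to 0.0609 (*Slc25a32*), -0.130 to 0.160 (*Slc25a40*), -2.86e-05 to 0.136 (*Slc25a44*), -0.402 to 0.0723 (*Slc25a53*), -0.0140 to 0.0609 (*Slc25a10*), -0.00625 to 0.0413 (*Slc25a15*), -0.00276 to 0.0509 (*Slc25a3*), -0.0923 to 0.0109 (*Slc25a30*), -0.239 to 0.0722 (*Slc25a43*), -0.241 to 0.0472 (*Slc25a33*), -0.0716 to 0.0811 (*Slc25a24*), -0.0217 to 0.109 (*Slc25a26*) and -0.0361 to 0.387 (*Slc25a47*), and the cause was not tested. No paired analysis was possible because replicate numbers are missing from the count table's column names. Summing near-identical libraries was not run, since no pair agreed within sampling noise. Members under 5 CPM rest on 23 to 74 counts per library.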
